A study of Homo sapiens with 4 samples.

Results

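The proteasome subunit and assembly genes are the genes whose symbols begin with PSM, followed by a letter from A to G and a number. They were found by that symbol rule in the platform's probe annotation, among features annotated to exactly 1 gene. The rule gave 43 genes carried by 69 features, out of 18334 genes and 31332 such features. Of 48 RefSeq symbols that match the rule, 5 (PSMB11, PSMC5, PSMD7, PSMD13 and PSMG4) were not analysed here. Among the 43 members, 20 had 2 or more features, which were averaged, and 23 had 1. No member was left out by a filter on low values, since none was applied.

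The cells were HEK293T, derived from human embryonic kidney and expressing the SV40 large T antigen. They were transfected with plasmids expressing either an siRNA specific for CHD6, a chromodomain helicase that remodels chromatin, or a control siRNA, and total RNA was taken at 48 h. Each of 4 Agilent arrays set 1 CHD6 siRNA sample directly against 1 control siRNA sample, so there was 1 group of 4 arrays. The CHD6 siRNA sample carried the red dye Hy5 on replicates 2 and 4 and the green dye Cy3 on replicates 1 and 3, with the control in the other dye. Nothing in the labels ties the replicates to separate cultures; the p-values cover array-to-array spread alone, and that spread could be purely technical.

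The direction of the deposited log ratios is not settled. Arrays of opposite dye orientation correlated at -0.84 to -0.68 across all features, and arrays of the same orientation at 0.80 and 0.79; features are not independent replicates. The columns are read here as CHD6 siRNA over control siRNA. That direction is called likely from the titles alone, each of which puts the siRNA sample ahead of the control, and it was not tested. If the columns instead hold Hy5 over Cy3, the sign of replicates 1 and 3 has to be turned, and the treatment difference becomes the quantity called the dye component here. The dye component is the average of the 4 values after that turn, that is, of replicates 2 and 4 as they are and of replicates 1 and 3 with the sign changed. Both quantities come from 1 fit and are given side by side. The log base is assumed to be 2. CHD6 itself averaged -0.45 ± 0.15 (SD, n = 4) over its 3 features and was below 0 on all 4 arrays. Most of that came from feature 27564, at -1.13, -1.21, -0.85 and -1.42 on replicates 1 to 4. The gene mean did not pass the test (limma adjusted p = 0.134), and turned by dye it would be -0.095. In the limma fit over all features, feature 27564 did pass (adjusted p = 0.0339). Features 1672 and 36130 did not (adjusted p = 0.984 and 0.805). Turned by dye, feature 27564 would not pass (limma adjusted p = 0.195).

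The proteasome is the protease that degrades ubiquitin-tagged proteins in the nucleus and cytosol. Its barrel-shaped core stacks rings of alpha subunits (PSMA genes) on rings of beta subunits (PSMB genes), some of which hold the cutting sites. A regulatory cap of ATPases (PSMC genes) and non-ATPase subunits (PSMD genes) binds, unfolds and feeds in the substrate, and other activators (PSME genes) can bind in its place. Dedicated chaperones, PSMG genes for the core and some PSMD genes for the cap, assist assembly and are not part of the finished particle. When proteasome activity is low, mammalian cells raise most subunit genes together through the transcription factor NFE2L1, which binds antioxidant response elements. Interferon raises PSMB8, PSMB9 and PSMB10, which replace the constitutive catalytic beta subunits, together with PSME1 and PSME2.

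The promoter windows of 3 members are printed because they stand for the groups met below. PSMB10 was the member with the largest dye component and PSME3 the member with the smallest p. PSMD3 had 2 features with dye components of opposite sign, of which only the feature above 0 passed the limma test. Each window runs from 250 bases before to 50 after the RefSeq gene start (GRCh38.p14), at chr16:67936801-67937100 on the minus strand for PSMB10, and at chr17:39980557-39980856 and chr17:42833147-42833446 on the plus strand for PSMD3 and PSME3. Capitals mark matches on either strand to the antioxidant response element core, written TGACNNNGC, or to a core of the interferon-stimulated response element, GAAA followed by any 2 bases and GAAA again.
PSMB10: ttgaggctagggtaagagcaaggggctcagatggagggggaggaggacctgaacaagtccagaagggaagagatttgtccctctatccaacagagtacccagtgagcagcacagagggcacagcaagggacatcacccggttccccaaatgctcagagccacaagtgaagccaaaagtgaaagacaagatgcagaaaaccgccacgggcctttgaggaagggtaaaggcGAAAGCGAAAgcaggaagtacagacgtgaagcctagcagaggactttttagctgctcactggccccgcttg
PSMD3: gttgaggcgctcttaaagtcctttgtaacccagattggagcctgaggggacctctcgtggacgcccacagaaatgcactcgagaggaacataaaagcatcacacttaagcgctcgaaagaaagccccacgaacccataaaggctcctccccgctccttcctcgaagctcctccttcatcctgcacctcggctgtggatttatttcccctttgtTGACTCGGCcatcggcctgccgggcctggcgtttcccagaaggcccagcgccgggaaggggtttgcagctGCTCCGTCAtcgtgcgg
PSME3: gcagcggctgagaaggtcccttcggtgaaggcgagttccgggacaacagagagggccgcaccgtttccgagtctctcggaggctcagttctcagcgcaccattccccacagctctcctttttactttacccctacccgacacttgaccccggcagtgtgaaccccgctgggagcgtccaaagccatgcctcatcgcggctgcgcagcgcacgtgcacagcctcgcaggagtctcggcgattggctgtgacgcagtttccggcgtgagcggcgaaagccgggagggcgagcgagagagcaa
PSMB10 holds 1 interferon-element match, PSMD3 holds 2 antioxidant-element matches and PSME3 holds 0 of either. RefSeq windows were found for 37 of the 43 members, 45 windows in all. The antioxidant letters were in 14 of the 45 (31.1%), against 13.3% of all 35116 windows in the table. The interferon letters were in 6 of the 45 (13.3%), those of PSMA4, PSMB4, PSMB8, PSMB10, PSME1 and PSME2, against 3.57% of all windows. The windows of PSME1 and PSME2 hold both motifs, and in 0 member windows do matches to both share a base. These are letter matches and not binding sites, and the full table includes windows of non-coding genes with other base composition.

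With the columns read as deposited, no proteasome gene passed the test for a difference between CHD6 siRNA and control siRNA cells. Turned by dye, 21 of 43 members would pass (44.8% of all genes). As deposited, the limma fit with a dye term gave 0 of 43 members higher and 0 lower at an adjusted p under 0.05. The shares over all genes were 0% higher and 0.0218% lower. At an unadjusted p under 0.05, 0 members were higher and 1, PSME3, was lower, against 4.97% and 4.4% of all genes. With the intercept alone, 0 members passed adjusted or unadjusted (0% and 1.32% of all genes). The 43 mean log2 ratios lay between -0.20 and 0.09, and none was 0.25 or more from 0 in size (4.1% of all genes). Their median was -0.03, with 31 below 0 (50.8% of all genes) and 12 above (49.2%), and 31 lay within 0.1 of 0 (68.1% of all genes). The median over all genes was -0.0025. The members' median was -0.075 without replicate 2 and -0.0025 without replicate 4.

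Under this reading the limma intervals bounded each member, for array-to-array spread after the dye term alone. If that spread is purely technical, the intervals leave out variation between cultures. The 95% interval from limma lay within 1.5-fold of no difference in both directions for all 43 members (98.7% of all genes), and within 1.3-fold for 42 of them, all but PSMD10 (89.4% of all genes). The outermost bounds were a 0.749-fold ratio for PSMD10 and a 1.20-fold ratio for PSMD14. Log ratios carry no signal intensity, so no member's transcript level, detection or saturation is known. Likewise the labelled cell line could not be checked against its markers by level.

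Not 1 member kept the same sign on all 4 arrays. The counts were 0 above and 0 below 0, beside 3.56% of all genes above and 3.5% below. Turned by dye, 19 members would be above 0 on all 4 arrays (31.3% of all genes) and 8 below (21.3%).

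**Figure D1:**
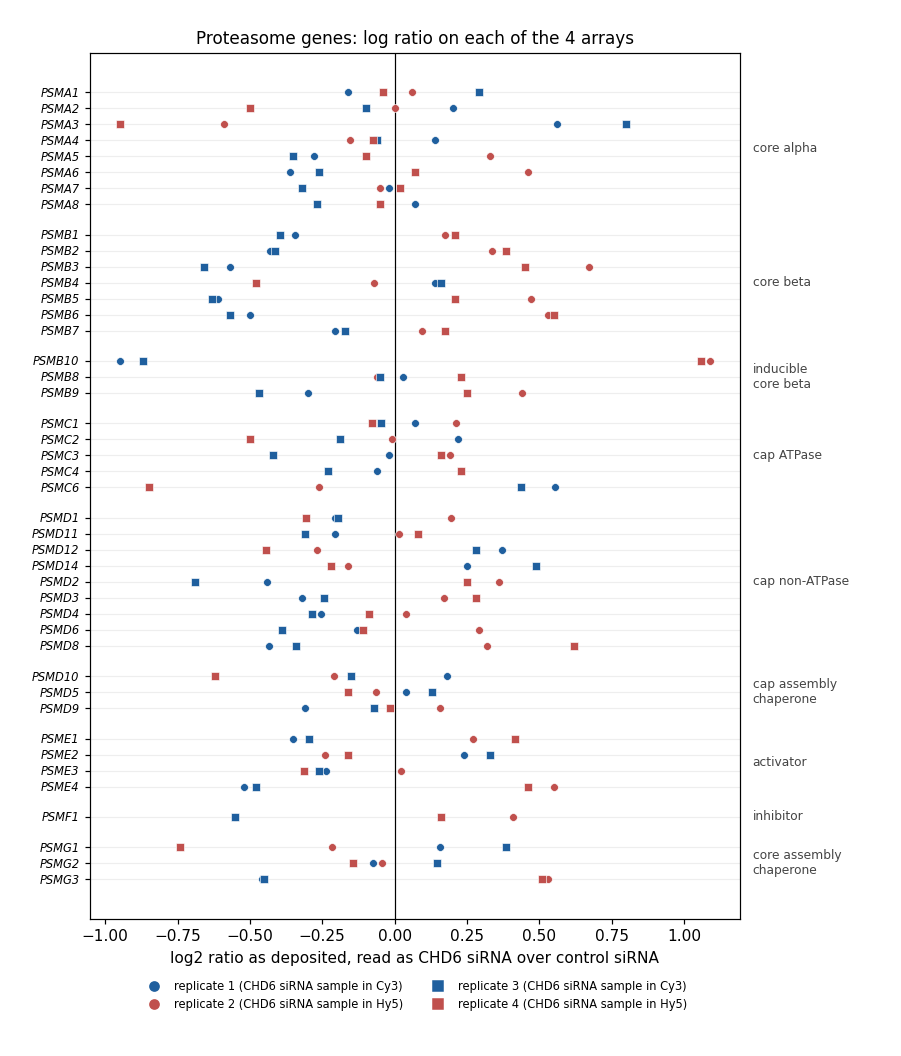
Each point is the log2 ratio of a proteasome gene (rows, grouped by role) on 1 of the 4 arrays, with 0 marked by a line. Red points are the arrays with the CHD6 siRNA sample in Hy5 and blue points those with it in Cy3. No row has all 4 points on 1 side of 0, and in many rows red and blue lie on opposite sides, most widely for PSMB10.

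The core alpha subunits form the outer rings that gate entry. The 8 measured genes had a median of -0.06 and a range from -0.10 to 0.04, with 7 below 0. PSMA2 was at 0 and -0.50 on replicates 2 and 4 and at 0.20 and -0.10 on replicates 1 and 3. Its mean was -0.10 ± 0.29 (SD, n = 4; limma adjusted p = 0.811), and it sat at 0.025 without replicate 4. PSMA1 was at 0.06 and -0.04 on replicates 2 and 4 and at -0.16 and 0.29 on replicates 1 and 3, a mean of 0.04 ± 0.19 (SD, n = 4). In both genes the arrays of 1 orientation disagreed with each other. PSMA3 was the member most below 0 by dye, with -0.59 and -0.95 on replicates 2 and 4 and 0.56 and 0.80 on replicates 1 and 3. Its mean was -0.045 ± 0.86 (SD, n = 4; adjusted p = 0.917), and its dye component was -0.73 (adjusted p = 0.000362). PSMA8, which replaces PSMA7 in the testis, averaged -0.075, close to PSMA7 at -0.0925.

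Among the constitutive beta subunits, 6 of 7 lay above 0 on replicates 2 and 4 and below 0 on replicates 1 and 3 (31.3% of all genes). The 7 measured genes had a median of -0.03 and a range from -0.14 to 0.0025, with 6 below 0. PSMB5, which carries the chymotrypsin-like site that bortezomib blocks, was at 0.47 and 0.21 on replicates 2 and 4 and at -0.61 and -0.63 on replicates 1 and 3. Its mean was -0.14 ± 0.56 (SD, n = 4; limma adjusted p = 0.603), or -0.075 without replicate 4. PSMB6, which carries the caspase-like site, was at 0.53 and 0.55 and at -0.50 and -0.57 on the same pairs of arrays, a mean of 0.0025 ± 0.62 (SD, n = 4). PSMB3, a non-catalytic subunit, was at 0.67 and 0.45 and at -0.57 and -0.66, a mean of -0.0275 ± 0.69 (SD, n = 4). In all 3 genes the 2 orientations did not overlap and nearly cancelled. The dye component was above 0 for 6 of the 7 genes (57% of all genes), from 0.16 for PSMB7 to 0.59 for PSMB3, and it passed the test for 5 (26.9% of all genes). The exception, PSMB4, was at -0.07 and -0.48 and at 0.14 and 0.16, a dye component of -0.21 that did not pass (adjusted p = 0.0728).

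Of the inducible catalytic subunits, PSMB10 had the largest dye component of all members. It was at 1.09 and 1.06 on replicates 2 and 4 and at -0.95 and -0.87 on replicates 1 and 3. The mean was 0.08 ± 1.15 (SD, n = 4; limma adjusted p = 0.760), while the dye component was 0.99 (adjusted p = 8.08e-05), which would be a 1.99-fold ratio if the columns were turned. PSMB9 was at 0.44 and 0.25 and at -0.30 and -0.47, a mean of -0.02 ± 0.43 (SD, n = 4). PSMB8, the partner that replaces PSMB5, stayed close to 0 on every array, at -0.06 and 0.23 and at 0.03 and -0.05, a mean of 0.0375 ± 0.13 (SD, n = 4). Its dye component of 0.0475 did not pass (adjusted p = 0.669). The 3 inducible genes therefore shared means near 0 but had unlike dye components.

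The ATPases of the cap pull substrates into the core. The 5 measured genes had a median of -0.0225 and a range from -0.12 to 0.04. PSMC2 was at -0.01 and -0.50 on replicates 2 and 4 and at 0.22 and -0.19 on replicates 1 and 3. Its mean was -0.12 ± 0.30 (SD, n = 4; limma adjusted p = 0.787), and the 2 orientations overlapped. PSMC4 was at 0.23 and 0.23 and at -0.06 and -0.23, a mean of 0.04 ± 0.23 (SD, n = 4). Of the 5, only PSMC6 passed the test on the dye component, at -0.52 (adjusted p = 0.00354).

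The non-ATPase cap subunits include scaffolds, ubiquitin receptors and a deubiquitinase. The 9 measured genes had a median of -0.085 and a range from -0.15 to 0.09, with 7 below 0. PSMD4, a ubiquitin receptor, was at 0.04 and -0.09 on replicates 2 and 4 and at -0.255 and -0.285 on replicates 1 and 3. Its mean was -0.15 ± 0.15 (SD, n = 4; limma adjusted p = 0.546), or 90.3% of control. Replicate 2 was the 1 array above 0. PSMD14, the deubiquitinase that removes ubiquitin chains before degradation, had the highest mean of all members as deposited. It was at -0.16 and -0.22 and at 0.25 and 0.49, a mean of 0.09 ± 0.34 (SD, n = 4; adjusted p = 0.762), and its sign followed the dye. Without replicate 3 the mean was 0.03, and turned by dye it would be -0.28. PSMD1 and PSMD2, the large scaffolds, averaged -0.13 each.

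Among the cap assembly chaperones, PSMD10 (gankyrin) had the lowest mean of all 43 members in the deposited direction. It was at -0.21 and -0.62 on replicates 2 and 4 and at 0.18 and -0.15 on replicates 1 and 3. The mean was -0.20 ± 0.33 (SD, n = 4; limma adjusted p = 0.559), or 87.1% of control in that direction. It was -0.0975 without replicate 4 and -0.30 without replicate 2, and turned by dye it would be -0.215 (limma adjusted p = 0.09998). PSMD5 was at -0.065 and -0.16 and at 0.04 and 0.13, a mean of -0.01 ± 0.13 (SD, n = 4). PSMD9 averaged -0.06. Of the core assembly chaperones, PSMG1 averaged -0.10 ± 0.49, PSMG2 -0.03 ± 0.12 and PSMG3 0.03 ± 0.56 (SD, n = 4 each). PSMG1, which pairs with PSMG2, was at -0.215 and -0.74 on replicates 2 and 4 and at 0.155 and 0.385 on replicates 1 and 3. PSMG3 ran the other way, at 0.53 and 0.51 and at -0.46 and -0.45. Their dye components, -0.37 for PSMG1 and 0.49 for PSMG3, both passed the test (adjusted p = 0.0152 and 0.000647).

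PSME3, the nuclear activator also known as PA28-gamma, had the smallest p of the members. It was at 0.0225 and -0.31 on replicates 2 and 4 and at -0.24 and -0.26 on replicates 1 and 3. Its mean was -0.20 ± 0.15 (SD, n = 4), or 87.2% of control, with an unadjusted limma p of 0.0356 and an adjusted p of 0.485, and it sat at -0.11 without replicate 4. Its 4 features differed. The 2 annotated to the RefSeq transcript NM_176863 averaged -0.31 each, the 1 on an expressed sequence tag -0.165, and the 1 on NM_005789 -0.01. Of the NM_176863 features, 9113 was at 0.51 and -0.04 on replicates 2 and 4 and at -1.07 and -0.64 on replicates 1 and 3. The NM_005789 feature was at -0.47 and -0.57 and at 0.84 and 0.16 on the same pairs, so both averages mix arrays of opposite sign. Feature 15828, on NM_176863, was below 0 on all 4 arrays, at -0.54, -0.04, -0.18 and -0.46 on replicates 1 to 4, the only member feature of 69 with 1 sign (1.45%; 3.3% of all features were below 0 on all 4 arrays and 3.45% above). It did not pass the limma test over all features (adjusted p = 0.580), and neither did any other member feature (0 of 69; 0.0199% of all features). PSME2, which pairs with PSME1 in the interferon-inducible activator, was at -0.24 and -0.16 on replicates 2 and 4 and at 0.24 and 0.33 on replicates 1 and 3, a mean of 0.04 ± 0.28 (SD, n = 4). PSME1 averaged 0.01 and PSME4, the activator known as PA200, 0.0025. PSMF1, an inhibitor of the isolated core also known as PI31, was at 0.41 and 0.16 and at -0.55 and -0.55, a mean of -0.13 ± 0.49 (SD, n = 4; adjusted p = 0.623), or -0.07 without replicate 4.

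Read with the columns turned by dye, some members would pass above 0 and others below, at shares near those of all genes. The dye component passed the test for 21 of 43 members (48.8%), against 44.8% of all genes. Of these, 15 were above 0 (34.9%; 26.9% of all genes) and 6 below (14%; 18% of all genes). Without a dye term the turned columns gave the same counts of 15 (25.5% of all genes) and 6 (16.5%). Whether called or not, 29 members had a dye component above 0 (57% of all genes). The 15 were 1 alpha subunit (PSMA6), 5 constitutive and 2 inducible beta subunits, 3 non-ATPase cap subunits (PSMD2, PSMD3 and PSMD8), PSME1, PSME4, PSMF1 and PSMG3. The 6 below 0 were PSMA3, PSMC6, PSMD12, PSMD14, PSME2 and PSMG1. By subgroup, the median dye component was -0.0013 for alpha, 0.39 for constitutive beta and 0.365 for inducible beta subunits. It was 0.0275 for cap ATPases, 0.15 for non-ATPase subunits, -0.099 for cap chaperones, 0.19 for activators and -0.065 for core chaperones. Over all members it was 0.13 and over all genes 0.03, and for 36 of 43 members it was larger in size than the mean. Some subunits of the same ring, such as PSMA3 and PSMA6, were on opposite sides of 0, as were PSME1 and PSME2, which work as a pair. The pair PSMG1 and PSMG2 was on the same side, at -0.37 and -0.065.

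**Figure D2:**
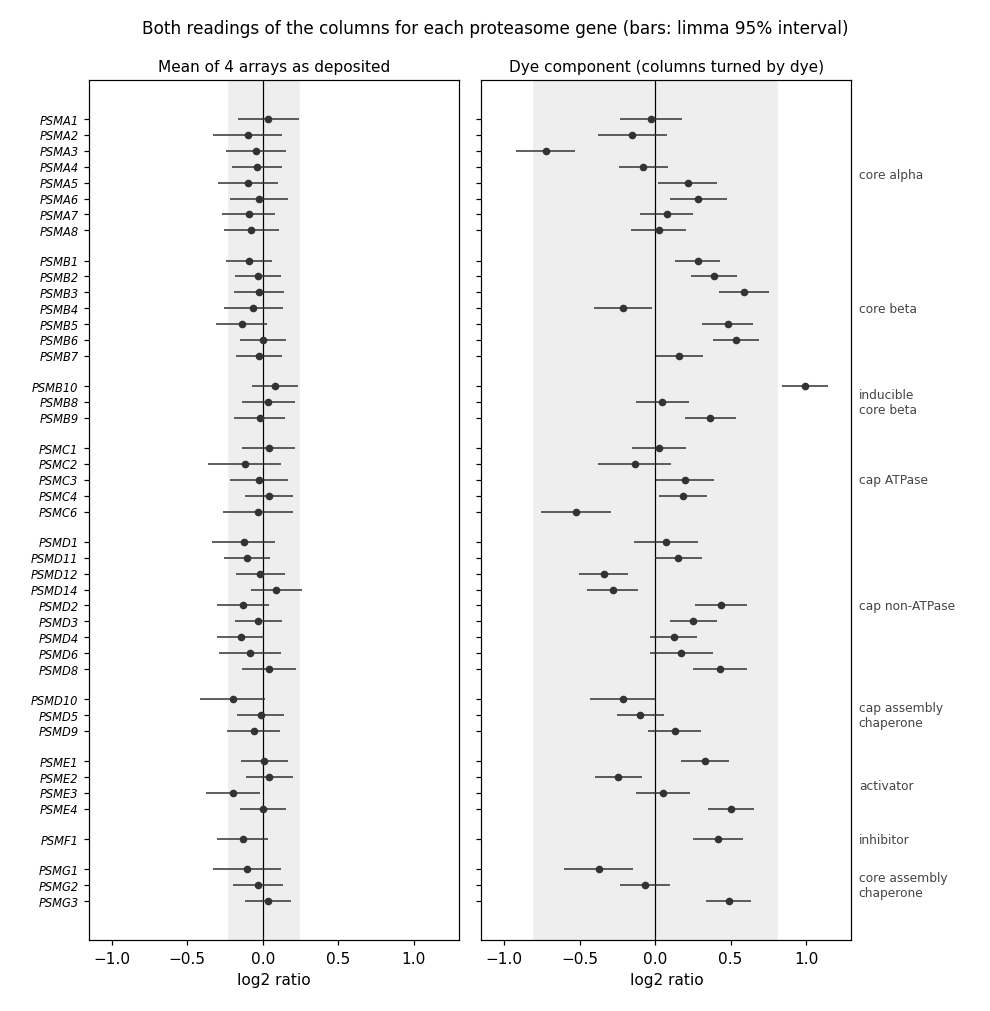
Points are the mean log2 ratio as deposited (left) and the dye component (right) of each of the 43 proteasome genes, bars are limma 95% intervals, and the grey band holds the central 95% of all genes. On the left the points lie between -0.20 and 0.09, inside the band; on the right they spread from -0.73 for PSMA3 to 0.99 for PSMB10.

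Features of the same proteasome gene differed less in their means than in their dye components. So did different members, with an SD between members of 0.071 for the mean and 0.33 for the dye component. The closer means therefore do not show that features of 1 gene agreed. Over the 20 members with several features, the range between features had a median of 0.06 for the mean log2 ratio and 0.39 for the dye component. Over all genes with several features these medians were 0.105 and 0.345, so the wider dye range was not particular to the members. The dye range was the wider of the 2 in 19 of 20 members (6416 of all 7759 genes with several features). In 10 of the 20 (50%; 47.8% of all such genes) features of 1 gene had dye components of opposite sign. PSMD4 shows the contrast: both its features are annotated to 1 transcript, their means were -0.16 and -0.13, and their dye components were -0.34 and 0.58. PSMD3 likewise had means of -0.0075 and -0.05 and dye components of -0.13 and 0.64, though only the latter passed (limma adjusted p = 0.229 and 0.000591). For PSMC6, the 4 features had dye components from -0.90 to -0.15 and means from -0.13 to 0.02. PSMA4 was the exception, with dye components of -0.08 and -0.075. A value averaged over features, such as the dye component of 0.12 for PSMD4, therefore hides features that ran in opposite directions.

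**Figure D3:**
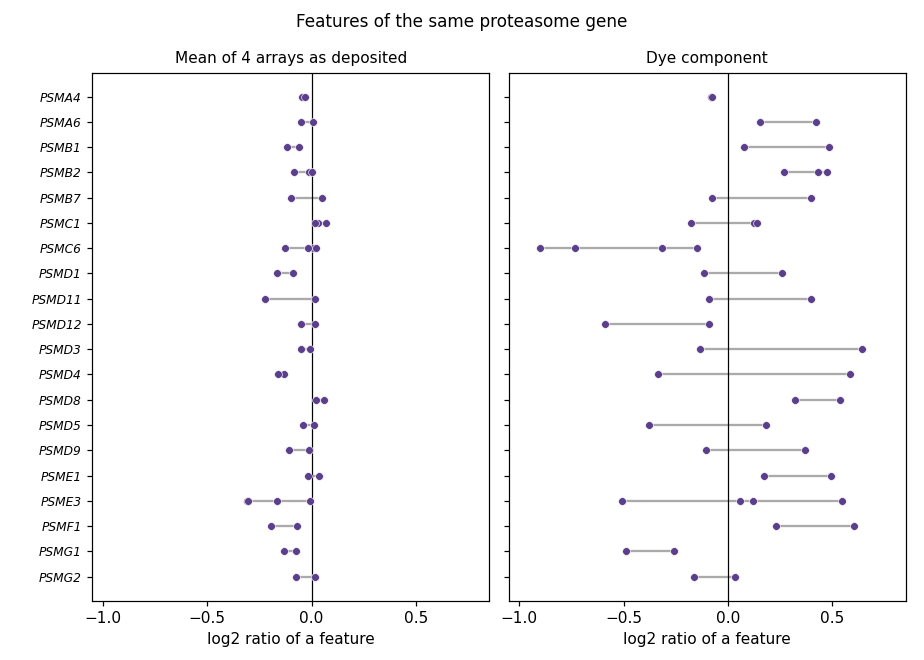
Each point is 1 feature of a proteasome gene with several features, joined by a grey line within a gene, for the mean log2 ratio (left) and the dye component (right). Points of 1 gene lie at most 0.30 apart on the left, for PSME3, and up to 1.06 apart on the right.

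Other genes of the pathway were set beside the members. As deposited, 0 of them passed the limma test in either direction (0% and 0.0218% of all genes). At an unadjusted p under 0.05, 0 of the 42 measured were higher (4.97% of all genes) and 6 were lower (SEM1, USP14, UBQLN2, NFE2L1, HSPA1A and DNAJB1; 4.4% of all genes), and with the intercept alone 0 passed the adjusted test. The accessory factors (11 of 13 listed symbols measured) had a median of 0.004, with 6 above and 5 below 0. The lowest as deposited was SEM1, a small cap subunit, at -0.31 ± 0.36 (SD, n = 4; limma adjusted p = 0.463). It was at -0.37 and 0.08 on replicates 2 and 4 and at -0.78 and -0.18 on replicates 1 and 3, so arrays of 1 orientation differed widely. Turned by dye SEM1 would be at 0.17, and the lowest accessory factor would be ECPAS, a proteasome-binding adaptor, at -0.775. USP14, a deubiquitinase of the cap, averaged -0.22 ± 0.29 (SD, n = 4; adjusted p = 0.403). POMP, the maturation chaperone of the core, averaged 0.13 ± 0.16 (SD, n = 4), and ADRM1, a ubiquitin receptor, 0.09 ± 0.79 (SD, n = 4). The shuttle and unfoldase genes (7 measured) had a median of -0.03; UBQLN2, a shuttle, was lowest at -0.345 ± 0.77 (SD, n = 4; adjusted p = 0.370). The 3 measured genes of ubiquitin and its activation (UBB, UBA1 and UBA6) lay between -0.07 and -0.05.

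Genes that control proteasome transcription all had means below 0 as deposited (50.8% of all genes), and none passed. Turned by dye, 4 of the 7 would be above 0 and NFE2L1 would be at 0.20. For the 7 measured the median was -0.085, against -0.0025 for all genes. NFE2L1 was lowest as deposited, at -0.195 and 0.155 on replicates 2 and 4 and at -0.30 and -0.525 on replicates 1 and 3. Its mean was -0.22 ± 0.28 (SD, n = 4; limma adjusted p = 0.478). NFE2L2, its relative that responds to oxidative stress, averaged -0.045 ± 0.58 (SD, n = 4). Of the members with a promoter window, the 14 that hold the antioxidant letters had a median mean log2 ratio of -0.02 and the 23 that do not had -0.06. Their median dye components were 0.10 and 0.05. These differences are given with no test.

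None of the genes known to rise when the proteasome is inhibited passed the test as deposited. All 5 measured had means below 0 as deposited (50.8% of all genes), with a median of -0.16. Turned by dye, 3 of the 5 would be above 0, with a median of 0.001. HSPA1A, an inducible chaperone, averaged -0.26 ± 0.43 (SD, n = 4; limma adjusted p = 0.331), with its low values, -0.50 and -0.74, on replicates 1 and 3. DNAJB1, its cochaperone, averaged -0.27 ± 0.66 (SD, n = 4; adjusted p = 0.408), with its low values, -0.60 and -1.03, on replicates 2 and 4. HMOX1, the heme-degrading enzyme, averaged -0.09 ± 0.11 (SD, n = 4) and showed no dye component (0.001).

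Most interferon response genes had means above 0 as deposited, and none passed the test in that reading. Of 9 measured, 8 had means above 0 as deposited (49.2% of all genes), with a median of 0.08, against -0.0025 for all genes. IRF1, the interferon-induced transcription factor, averaged 0.115 ± 0.26 (SD, n = 4), and TAP1, the peptide transporter, 0.105 ± 0.68 (SD, n = 4; limma adjusted p = 0.723). All 9 had dye components above 0 (57% of all genes), with a median of 0.23. Of the 5 interferon-raised proteasome genes, PSMB8, PSMB9, PSMB10 and PSME1 also had dye components above 0 (for PSMB8, 0.0475, not called), and PSME2 did not. The 6 members whose windows hold the interferon letters had a median dye component of -0.015, below the 0.13 of the 31 without them. Their median mean log2 ratios were 0.02 and -0.03. These differences are given with no test. Immune cell markers (8 of 9 measured) had a median of 0.05 and a range from -0.115 to 0.155, with 0 called and 2, PTPRC and LYZ, above 0 on all 4 arrays (3.56% of all genes). Genes linked to the origin of HEK293T (5 of 5 measured) had a median of 0.12, with 0 called. Levels of these markers are unknown, and their part in the interferon values was not tested.

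Turned by dye, genes of each of these lists would pass the limma test, where 26.9% of all genes would pass above 0 and 18% below. The counts above and below 0 would be 2 and 4 for accessory factors, 2 and 3 for shuttles and unfoldase genes, and 2 and 1 for ubiquitin genes. They would be 1 and 1 for transcriptional control, 2 and 2 for the proteasome inhibition list and 6 and 0 for the interferon list.

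**Figure D4:**
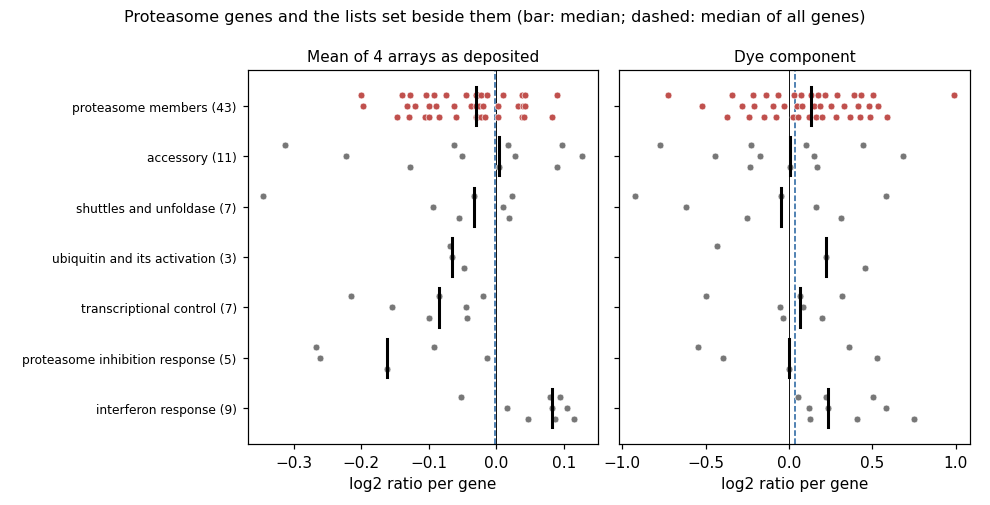
Each point is 1 gene, in rows for the 43 proteasome members (red) and 6 lists of related genes (grey, number measured in brackets), for the mean log2 ratio (left) and the dye component (right); bars are medians and the dashed line is the median of all genes. The members centre on -0.03 at left, the proteasome inhibition list on -0.16 and the interferon list on 0.08.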

How the data were processed

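Per the labels' protocols, 200 ng of total RNA were copied from a T7 oligo dT primer and transcribed with cyanine-labelled CTP. The authors deposited 1 column per array, taken here as log2 ratios of both channels, over 45220 features with 0 missing values and 0 unused columns. The sources used here do not give the base, centring, direction, scanner software, background correction or normalization. Column medians were -0.02, 0.03, -0.02 and 0.02 for replicates 1 to 4. Channel intensities and flags were not used here, so control and dim spots were kept and precision is limited by having 4 arrays.

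Features naming 1 gene in GEO's platform annotation (31332, of which 31291 were updated by Entrez identifier to RefSeq; 93 named several genes and 13795 were unnamed here) were averaged per gene. limma 3.58.1 (R 4.3.3; lmFit, eBayes) was fitted over all 18334 genes with an intercept and dye orientation, and p-values were Benjamini-Hochberg adjusted over all genes at 0.05. The fit was tested on simulated data.

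Members and lists were chosen with earlier results of these data known. Values on every array are given for each member with 1 sign on all 4 arrays, the highest and lowest mean of each subgroup, the 3 smallest p-values and the 3 largest dye components; other members, their features and genes outside the members were picked after their values were seen. Alternatives varied the model, the direction, replicates, features, centring, scaling and moderation. Promoter windows are RefSeq's.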

Additional observations from a re-analysis of the deposited data

Results flagged for a closer look

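Dixon's gap test for a single outlying array was run on the 4 values of each of the 43 members and of 9 subgroup medians, 52 groups in which chance gives about 2.6 hits. It found 0. The nearest was PSMA7, where the gap was 0.794 of the range, under the critical value. The 4 values mix both dye orientations, and for 36 of 43 members the dye component was larger in size than the mean. Where the orientations split the arrays into pairs, the gap at 1 end is small and an outlying array can be missed. The 2.6 also takes the 4 values as 1 normal sample. The count of 0 therefore does not show that no array was outlying.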

How the results depend on the processing

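The count of 0 members called in either direction was the same with the intercept alone, the median over features, 1 row per feature, columns centred on their median, quantile normalization, robust or no moderation, and without any 1 replicate (smallest adjusted p among members 0.324). Leaving out 1 replicate leaves 1 array in 1 orientation, so that fit has little power. The direction of the columns decided the calls: turned by dye, 15 members would be called higher and 6 lower, with or without a dye term, 19 would be above and 8 below 0 on all 4 arrays, and the median would be 0.39 for constitutive beta subunits, 0.15 for non-ATPase cap subunits and 0.42 for PSMF1. Turned, 23 of 43 members changed sign, 9 of them among the 19 whose values are given on every array: PSMA1 to -0.0275, PSMB3 to 0.59, PSMB5 to 0.48, PSMB9 to 0.365, PSMD4 to 0.12, PSMD14 to -0.28, PSME2 to -0.24, PSME3 to 0.0525 and PSMF1 to 0.42. Centring the columns left 0 members above and put 2, PSMD4 and PSME3, below 0 on all 4 arrays. Without 1 replicate, 24 of 43 members changed sign and 2 others (PSMC4 and PSMD9) reached exactly 0. Of those 19, 9 changed sign, with ranges of -0.075 to 0.15 (PSMA1), -0.225 to 0.025 (PSMA2), -0.135 to 0.045 (PSMA3), -0.0825 to 0.0275 (PSMB3), -0.015 to 0.02 (PSMB6), -0.0675 to 0.0275 (PSMB9), -0.2425 to 0.0025 (PSMC2), -0.0375 to 0.01 (PSMD5) and -0.235 to 0.0275 (PSMG1). Of the 19, PSMB5 ranged from -0.205 to -0.075, PSMD14 from 0.03 to 0.15 and PSMF1 from -0.195 to -0.07. The subgroup medians ranged from -0.10 to 0.016 (alpha), -0.08 to -0.035 (beta), 0.0175 to 0.075 (inducible beta), -0.059 to 0.068 (ATPase), -0.125 to -0.034 (non-ATPase), -0.12 to 0 (cap chaperones), -0.0056 to 0.018 (activators) and -0.085 to 0.0275 (core chaperones). Signal over background is unknown, so what it limits could not be measured. Each array holds both conditions, so each log ratio is a within-array difference and the limma test of the mean is already paired. With 1 group there was no further pairing to use.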
